A study of Mus musculus with 40 samples.

Results

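The synaptic vesicle release machinery is described here by 35 genes that were taken by name from the 55471 genes of the count table: SNARE proteins and the factors that take them apart, complexins, synaptotagmins, active zone scaffolds, Rab3 GTPases and proteins of the vesicle itself. All 35 were found, and all 35 had enough counts to enter the test with 18441 genes. Messenger RNA had been sequenced from ventral tegmental area punches of adult mice, a part of the midbrain with many dopamine neurons, in 40 libraries that fell into 8 groups of 5. The mice had gone through repeated cross fostering (RCF), in which a litter was moved each day from postnatal day 1 to 4 to another adoptive mother, or were controls. RCF males, control males, RCF females and control females of the C57/Bl6 strain (C57 below) and of the DBA strain made up the groups, and the labels name no mutant allele and no drug. The question set by this design is whether the early procedure changed adult expression, and whether strain and sex mattered. The labels tie no library to an animal or a litter, so the p-values measure the spread between libraries, which may be partly technical.

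A nerve terminal releases transmitter when the vesicle SNARE, synaptobrevin (Vamp1, Vamp2), zips together with syntaxin (Stx1a) and SNAP-25 (Snap25) on the plasma membrane. Complexins (Cplx1, Cplx2) hold and assist the partly zipped complex, and synaptotagmins are the calcium sensors that set it off, Syt1 and Syt2 for fast release. Many of these proteins exist as paralogues used by different neurons: in mouse, Syt2, Vamp1 and Cplx1 are prominent in fast-firing neurons of the brainstem and spinal cord, and Syt1, Vamp2 and Cplx2 in the forebrain. Dopamine neurons of the midbrain release through the same machinery, and Sv2c, a vesicle membrane protein, is abundant in them.

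The start regions of 3 members whose levels spread widely between libraries are shown with the GC box marked, a motif bound by Sp family factors. RefSeq gave entries for 26 of the 35 genes, with 34 start windows in all. The letters searched were GGGCGG on both strands, and capitals mark each match. The Cplx1 window lies at chr5:108550028-108550277 (minus strand), the Vamp1 window at chr6:125215331-125215580 (plus strand) and the second Syt2 window at chr1:134709050-134709299 (plus strand), all in GRCm38.p6 and printed 5′ to 3′ up to the base before the annotated start.
Cplx1: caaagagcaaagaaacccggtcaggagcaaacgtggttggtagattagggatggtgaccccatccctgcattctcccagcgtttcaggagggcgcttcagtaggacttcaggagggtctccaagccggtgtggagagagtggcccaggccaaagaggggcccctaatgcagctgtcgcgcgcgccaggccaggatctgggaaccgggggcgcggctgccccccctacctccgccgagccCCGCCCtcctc
Vamp1: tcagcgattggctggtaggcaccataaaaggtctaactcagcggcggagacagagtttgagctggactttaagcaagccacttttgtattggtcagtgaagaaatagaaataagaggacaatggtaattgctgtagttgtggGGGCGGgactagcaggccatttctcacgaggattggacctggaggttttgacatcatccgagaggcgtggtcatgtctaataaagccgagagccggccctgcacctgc
Syt2: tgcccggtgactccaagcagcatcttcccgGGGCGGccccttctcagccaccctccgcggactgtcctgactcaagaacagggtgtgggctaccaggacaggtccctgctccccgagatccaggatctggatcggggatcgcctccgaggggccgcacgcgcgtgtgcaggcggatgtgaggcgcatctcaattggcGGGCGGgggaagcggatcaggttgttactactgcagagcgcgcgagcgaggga
Cplx1 and Vamp1 had 1 GC box each and the Syt2 window had 2. Of windows not shown, the first of Syt2 had 3 and that of Cplx2 had 0. Windows of the same kind, the 250 bases before the annotated start, were searched for all genes. Of these, 21 of 34 windows of vesicle release genes (61.8%) held a GC box, against 10756 of 32851 windows of all genes (32.7%). The windows of the vesicle release genes were also richer in G and C, with a median of 61.2% against 52.4%. The cyclic AMP response element TGACGTCA was found in 0 of the 34 windows and in 1.55% of all windows, and the TATA box TATAAA in 3 (8.82%) and in 12.4%. A match of letters is a description of the window and was not tested for binding or for a link with the levels below.

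The most abundant members per kilobase of exon were Rab3a, a vesicle GTPase, with a median of 295.6 CPM per kb over the 40 libraries, Cplx1 with 293, Snap25 with 269 and Vamp2 with 261. Here CPM is the read count scaled to the library total after TMM normalization, and the exon length comes from GENCODE, so that rare long transcripts lower a gene's value. The order within these 4 genes was loose, as Rab3a exceeded Cplx1 in 21 of 40 libraries and Cplx1 exceeded Snap25 in 18. Below them, Vamp2 exceeded Syt11, a synaptotagmin that does not bind calcium, in 38 libraries. Syt11 had a median of 194 CPM per kb and Sv2a, the broadly used vesicle glycoprotein, 176, and they ranked 5 and 6 in every one of the 8 groups. Nsf, the ATPase that takes spent SNARE complexes apart, followed with 115 CPM per kb, below Sv2a in 39 of 40 libraries.

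Among the other members, Syt1 had a median of 98.5 CPM per kb, Cplx2 91.2, Napb 84.3, Syt4 75.4, Rab3c 60.4, Syn2 59.5 and Napa 54.0. Synj1, the phosphatase that strips clathrin coats from recovered vesicles, had 48.8, Syt5 45.3, Vamp1 37.8, Syt7 24.4 and Syt3 21.8. Syt2 stood at 17.7 CPM per kb. The active zone scaffolds and the Unc13 priming factors were low by this scale: Unc13c had a median of 18.8, Rims1 15.6, Unc13a 15.3, Bsn 10.4, Rims2 8.61 and Pclo 7.72 CPM per kb. Stx1a stood at 18.2, Sv2b at 13.9, Sv2c at 13.4, Rab3b at 11.4, Syt17 at 9.46, Syt9 at 8.66 and Syt12, a synaptotagmin with no calcium binding, at 5.74. Syn3, a synapsin best known from immature neurons, and Unc13b were lowest, with 1.07 and 1.02 CPM per kb, and Syt12 exceeded Syn3 in 40 of 40 libraries.

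**Figure D1:**
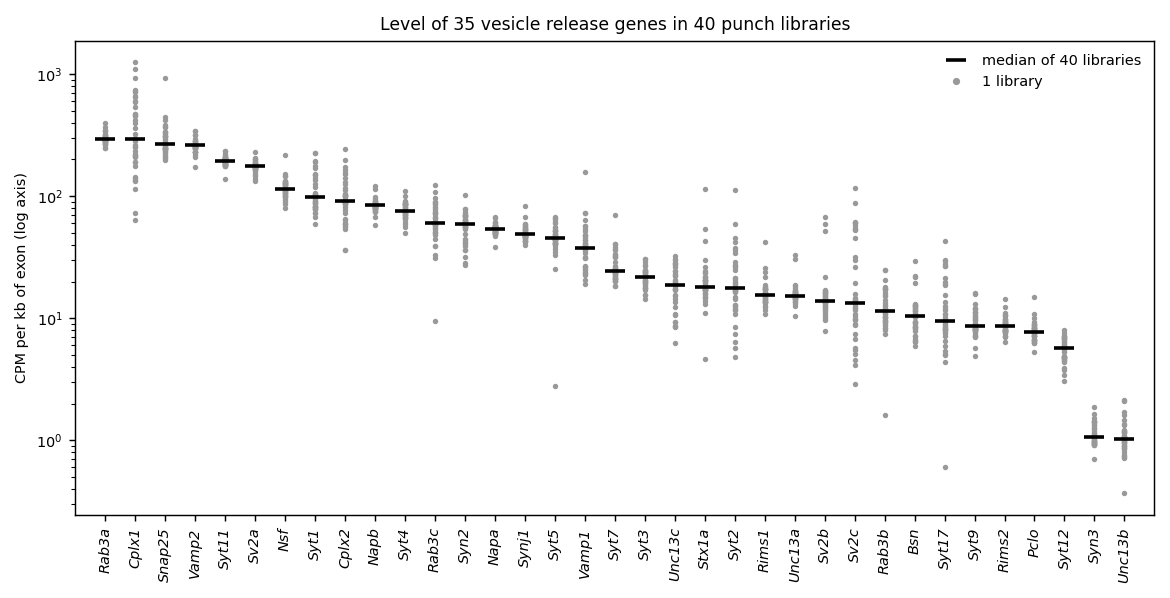
Level of each of the 35 genes per kilobase of exon (CPM per kb, log axis), 1 point per library, with the median of 40 libraries marked. Rab3a, Cplx1, Snap25 and Vamp2 lie at the top with medians of 261 to 295.6 CPM per kb, and Syt17, Sv2c, Stx1a, Syt5, Syt2 and Cplx1 run over wide ranges of the axis.

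The members differed strongly in how far libraries of 1 group lay apart. Sv2c had a within-group SD of 1.35 on the log2 scale, more than 98.9% of all tested genes, and ran from 28.0 to 1137 CPM. Syt17, a synaptotagmin with no calcium binding, had an SD of 1.10 (3.16 to 223 CPM), Cplx1 0.97 (141 to 2740 CPM) and Syt2 0.84 (36.7 to 855 CPM). At the other end stood Syt11 with an SD of 0.126, Rab3a with 0.128, Napa, an adaptor of Nsf, with 0.129, and Sv2a with 0.145. The median SD of the members was 0.370, against 0.286 for all tested genes.

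**Figure D2:**
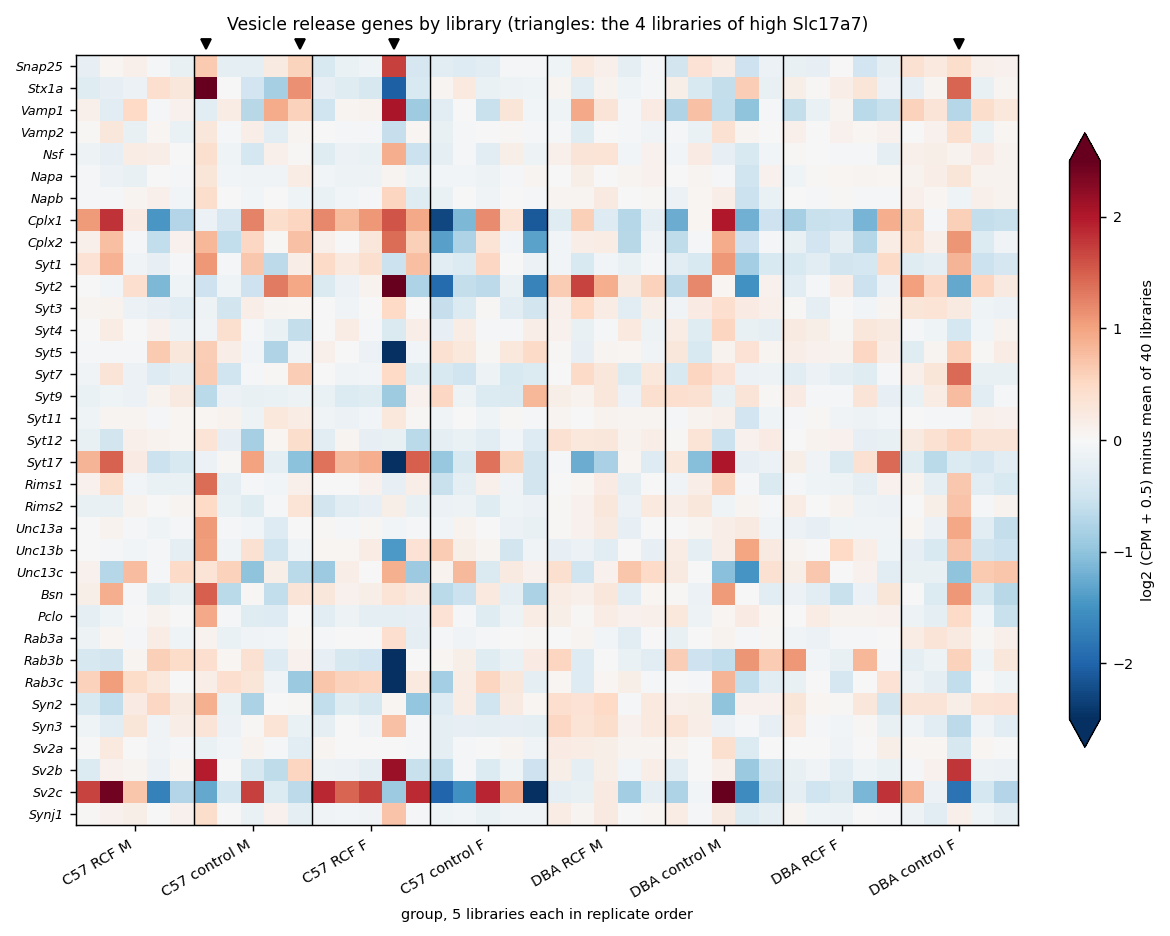
Each gene's log2 (CPM + 0.5) in each library minus its mean over the 40 libraries, by group in replicate order, with RCF left of control in each strain and sex. Triangles mark the 4 libraries of high Slc17a7, and Sv2c, Cplx1, Syt17 and Syt2 change colour between libraries of 1 group.

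Markers of cell types varied widely between libraries of 1 group. Th (tyrosine hydroxylase, which makes the precursor of dopamine) had 0.725 to 1644 CPM with a median of 40.1, and the dopamine transporter Slc6a3 had 0.460 to 2959 CPM with a median of 35.7, so that the labelled tissue showed its defining markers only weakly in many libraries. A dopamine neuron index, the mean log2 CPM of 9 markers, ran from 1.20 to 8.61, and a pan-neuronal index of 8 markers from 8.55 to 9.47. In bulk tissue, fewer cells of a type and less RNA per cell cannot be told apart. Slc17a7, the vesicular glutamate transporter of cortex, exceeded 10 times the median of 10.96 CPM in 4 libraries, which had 503 to 1312 CPM: RCF replicate 4 of C57 females, control replicates 1 and 5 of C57 males and control replicate 3 of DBA females. In RCF replicate 4 of C57 females 12 of the 35 members lay above and 9 below the range of the other 36 libraries, against 15.6% and 14.4% of all tested genes. This library also had Th at 0.725 CPM and the hindbrain genes Slc6a5 at 56.8, Tph2 at 43.7 and Hoxb5 at 33.8 CPM. Hindbrain genes were not confined to it. RCF replicate 5 of C57 females, which stayed among the 36, had Tph2 at 238, Slc6a5 at 14.4 and Hoxb5 at 0.0431 CPM. Control replicate 3 of C57 males, also kept, had Tph2 at 21.7 CPM. The hypothalamic gene Pmch ran from 0.399 to 847 CPM, and a hypothalamus and mammillary index of 5 markers from -0.69 to 5.47. This index was 0.17 ± 0.57 in RCF and 2.67 ± 2.53 in control females of C57 (SD, n = 5 each). Among RCF mice it was 3.09 ± 1.43 in DBA and 1.29 ± 1.71 in C57 (n = 10 each). Its relation to the members was not tested. In control replicate 1 of C57 males 15 lay above and 1 below, against 11.1% and 5.24% of all genes. In control replicate 5 of C57 males 7 and 2 did, against 8.85% and 9.02%, and in control replicate 3 of DBA females 13 and 3, against 13.6% and 8.53%. Results below are given with and without these 4 libraries where that matters.

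RCF changed none of the 35 genes at an adjusted p of 0.05 in any strain and sex (edgeR quasi-likelihood test, Benjamini-Hochberg over 18441 genes). Among all tested genes, the share that passed was 0.0108% in C57 males, 0.00542% in C57 females, 0.0163% in DBA males and 0.0163% in DBA females, so that few genes of any kind passed. At an unadjusted p under 0.05 there were 1 member in C57 males, 8 in C57 females, 1 in DBA males and 4 in DBA females, against 7.07%, 12.5%, 6.72% and 12.3% of all genes. The median log2 fold change of the members, RCF over control, was -0.08 in C57 males, 0.08 in C57 females, -0.02 in DBA males and -0.13 in DBA females. For all tested genes these medians were -0.02, 0.01, -0.01 and -0.01. Over the mean of the 4 comparisons 0 members passed, against 0.0217% of all genes, 2 had an unadjusted p under 0.05, against 6.95%, and the smallest p belonged to Syn3 (log2 fold change 0.22, edgeR adjusted p 0.683). DESeq2, limma voom and every other fit that was run also gave 0 members in each of the 4 comparisons.

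**Figure D3:**
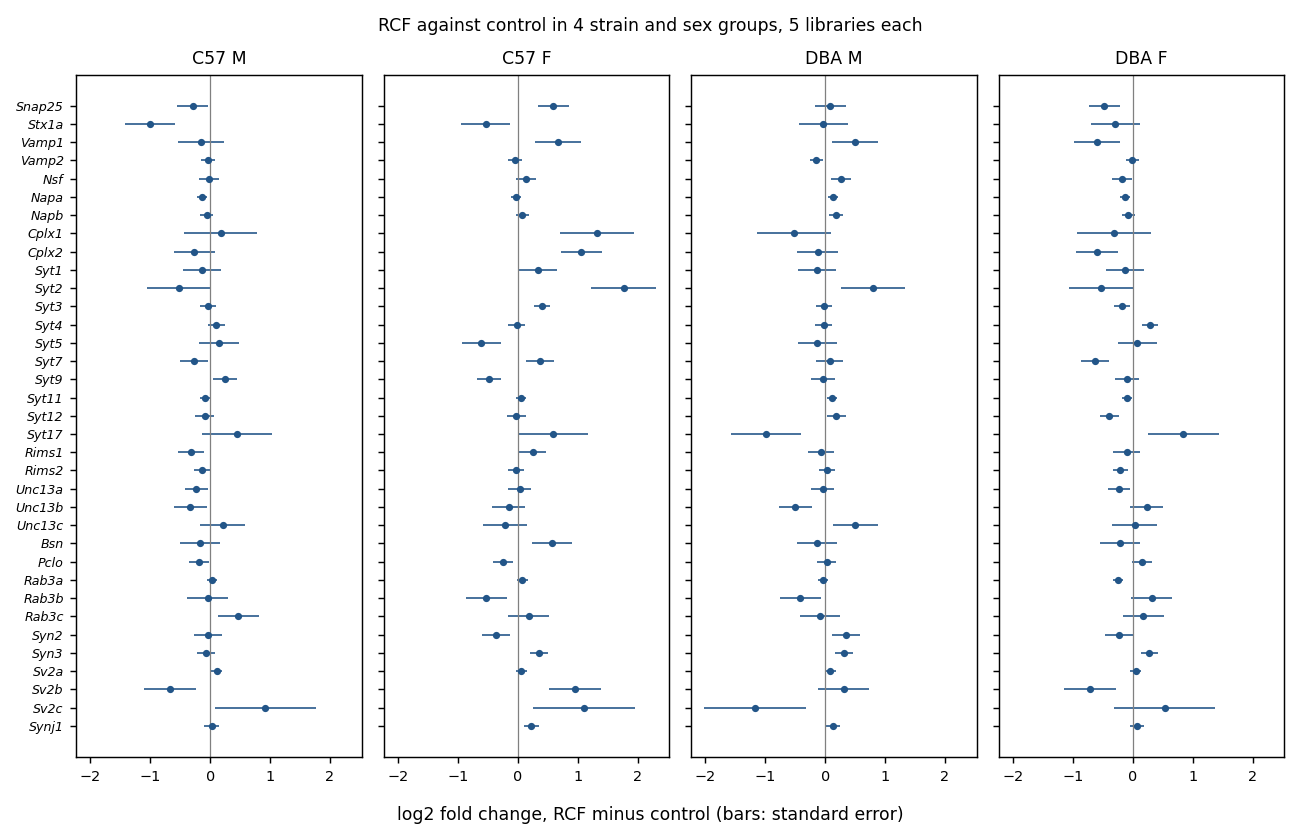
Log2 fold change, RCF over control, with its standard error for each of the 35 genes in the 4 combinations of strain and sex (edgeR). In C57 females Syt2, Cplx1, Sv2c and Cplx2 stand farthest right at 1.77, 1.32, 1.112 and 1.06, Stx1a stands farthest left in C57 males at -1.005 and Sv2c and Syt17 in DBA males at -1.17 and -0.99, and none of the 35 passed an adjusted p of 0.05.

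In C57 females 22 of the 35 log2 fold changes were above 0 and 13 below, and Syt2, Syt3 and Cplx2 had the smallest p, though none passed the threshold. Syt2, the fast calcium sensor, had 109, 127, 149, 855 and 82.4 CPM in RCF females, against 36.7, 93.3, 89.3, 125 and 43.8 CPM in control females. The groups overlapped, and RCF replicate 4 stood far above all others. The log2 fold change was 1.77 (SE 0.55, edgeR adjusted p 0.228) and 0.59 without that library.

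Cplx2, a complexin, had 494, 454, 554, 1203 and 689 CPM in RCF females and 177, 264, 575, 432 and 178 CPM in control females of this strain. All RCF libraries exceeded 4 of the 5 controls, and control replicate 3 lay among the RCF values. The log2 fold change was 1.06 (SE 0.35, edgeR adjusted p 0.229), 0.75 without RCF replicate 4 and 1.37 without control replicate 3.

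Its paralogue Cplx1 had 1592, 1185, 1451, 2044 and 1320 CPM in RCF females, against 141, 316, 1553, 873 and 159 CPM in control females. The same control library was the high one, and the other 4 controls lay below every RCF library. The log2 fold change was 1.32 (SE 0.62, edgeR adjusted p 0.380), and 2.03 without control replicate 3.

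Syt3, a synaptotagmin of high calcium affinity, had 67.4, 62.7, 67.5, 94.6 and 67.8 CPM in RCF females and 44.9, 52.9, 68.7, 55.6 and 48.6 CPM in control females. The groups overlapped through control replicate 3, and the log2 fold change was 0.41 (SE 0.13, edgeR adjusted p 0.228; 0.29 without RCF replicate 4). The dopamine neuron index was 6.45 ± 2.94 in these RCF females and 4.89 ± 2.37 in the controls, and the pan-neuronal index 8.88 ± 0.35 and 8.74 ± 0.05 (SD, n = 5 each). By replicate, the dopamine neuron index was 7.95, 7.54, 7.58, 1.20 and 7.98 in RCF females. In control females it was 2.73, 3.63, 7.90, 6.97 and 3.22. Control replicate 3, the highest control for Cplx1, Cplx2 and Syt3, thus also had the highest index of the controls. With the pan-neuronal index as a covariate the log2 fold changes were 0.54 for Syt2, 0.78 for Cplx2, 1.14 for Cplx1 and 0.31 for Syt3. With the dopamine neuron index as a covariate they were 1.61, 1.08, 1.62 and 0.40, and edgeR adjusted p was 0.31 for each. That fit used all 40 libraries, RCF replicate 4 among them. The slope on the index was 0.25 for Cplx1 and 0.032 for Cplx2 over 40 libraries. Without the 4 libraries of high Slc17a7 these slopes were 0.45 and 0.18. Log2 fold changes with this covariate were not tested without those libraries.

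The remaining paralogues of C57 females had overlapping groups. Syt1 had 1238, 1056, 1168, 609 and 1488 CPM in RCF females and 739, 700, 1275, 884 and 805 CPM in control females (log2 fold change 0.34, SE 0.32, edgeR adjusted p 0.686). Vamp1, the synaptobrevin of fast-firing neurons, had 275, 409, 414, 1596 and 209 CPM in RCF females, against 319, 386, 265, 481 and 373 CPM in control females, with a log2 fold change of 0.67 that became -0.16 without RCF replicate 4. Vamp2 had 997, 967, 973, 667 and 1028 CPM in RCF females and 874, 951, 991, 1014 and 951 CPM in control females, with a log2 fold change of -0.05 (0.05 without RCF replicate 4). In both synaptobrevins RCF replicate 4 was the library farthest from its group, high for Vamp1 and low for Vamp2. Stx1a was the 1 member whose groups did not overlap, against 1.23% of all genes with the same order and direction and 2.51% in either. It had 45.1, 42.4, 39.3, 12.3 and 39.9 CPM in RCF females and 54.6, 62.1, 46.4, 47.5 and 48.7 CPM in control females (log2 fold change -0.53, SE 0.41, edgeR adjusted p 0.613), and was chosen for mention on these values.

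In DBA females 23 of the 35 log2 fold changes were below 0 and 12 above, and Rab3a, Syt7 and Syt12 had the smallest p. Rab3a had 626, 601, 642, 641 and 658 CPM in RCF females and 757, 825, 777, 680 and 724 CPM in control females. The highest RCF library lay below the lowest control. The log2 fold change was -0.25 (SE 0.08, edgeR adjusted p 0.260), and -0.23 without the library of high Slc17a7, control replicate 3.

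Snap25, Nsf, Napa and Syt12 likewise did not overlap, so that 5 members were lower in all 5 RCF libraries, against 2.55% of all genes with that order and direction and 4.29% in either direction; 0 members had the opposite order. Snap25 had 1700, 1686, 1947, 1385 and 1662 CPM in RCF females, against 2519, 2287, 2620, 2103 and 2089 CPM in control females. Its log2 fold change was -0.47 (edgeR adjusted p 0.466). Nsf, which recycles the complex that Snap25 enters, had 985, 961, 951, 953 and 832 CPM in RCF females and 1053, 1072, 1036, 1115 and 1025 CPM in control females (log2 fold change -0.18, edgeR adjusted p 0.680).

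Napa, the alpha-SNAP that brings Nsf to the SNARE complex, had 189, 210, 212, 215 and 211 CPM in RCF females and 216, 229, 254, 217 and 217 CPM in control females (log2 fold change -0.13, edgeR adjusted p 0.529). Syt12 had 30.9, 32.4, 32.8, 26.4 and 26.8 CPM in RCF females, against 35.6, 39.7, 44.3, 38.0 and 38.2 CPM in control females. Its log2 fold change was -0.39 (SE 0.16, edgeR adjusted p 0.322). None of these 5 genes passed the threshold over all genes. Snap25, Nsf and Napa are outside the genes picked by smallest p: they were chosen with their values in view. The pan-neuronal index ran from 8.66 to 8.88 in RCF females of this strain and from 8.69 to 8.94 in the controls. Its mean was lower after RCF, with 8.74 ± 0.09 against 8.83 ± 0.10 (SD, n = 5 each). With it as a covariate the log2 fold change of Rab3a was -0.20 and that of Syt12 -0.35. Snap25 and Nsf rose more steeply with this index than Rab3a and Syt12, with slopes over 40 libraries of 2.34 and 1.44 against 0.51 and 0.51. Their log2 fold changes with the covariate are not given here.

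Syt7, a slow calcium sensor of high affinity, had 163, 179, 167, 159 and 190 CPM in RCF females and 216, 243, 525, 172 and 174 CPM in control females of DBA. Control replicate 3 stood apart, and the log2 fold change of -0.63 (SE 0.23, edgeR adjusted p 0.285) was -0.23 without it. Syt1 had 683, 744, 650, 659 and 1242 CPM in RCF females and 723, 765, 1600, 609 and 660 CPM in control females (log2 fold change -0.13), a value that became 0.21 without that control. Syt2 had a log2 fold change of -0.53, Cplx1 -0.31, Cplx2 -0.60, Vamp1 -0.59 and Vamp2 -0.01, each with overlapping groups and an edgeR adjusted p of 0.484 or more.

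In C57 males 24 of the 35 log2 fold changes were below 0 and 11 above, and the smallest p belonged to Stx1a, the syntaxin of the release site. It had 42.1, 45.1, 47.4, 69.9 and 63.3 CPM in RCF males, against 303, 52.7, 37.3, 29.3 and 116 CPM in control males. The control values enclosed all RCF values, and the 2 high controls were libraries of high Slc17a7. The log2 fold change was -1.005 (SE 0.41, edgeR adjusted p 0.668), -0.15 without control replicate 1 and 0.43 without all 4 such libraries.

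Napa in C57 males had 199, 186, 179, 203 and 201 CPM after RCF and 253, 194, 193, 193 and 234 CPM in controls, and Sv2b, a vesicle glycoprotein of forebrain neurons, had 100, 136, 133, 114 and 131 CPM after RCF and 492, 127, 96.0, 81.2 and 183 CPM in controls. Again the same 2 control libraries were the high ones. Their log2 fold changes of -0.14 (edgeR adjusted p 0.736) and -0.67 (0.756) became 0.00 and 0.28 without the 4 libraries. The 6 paralogues had log2 fold changes between -0.53 (Syt2) and 0.18 (Cplx1) with standard errors of 0.11 to 0.61, and 0 members had groups that did not overlap, against 0.938% of all genes.

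In DBA males 17 of the 35 log2 fold changes were above 0 and 18 below. Syn3 had 20.04, 17.7, 18.9, 14.9 and 16.3 CPM after RCF and 17.5, 15.5, 12.4, 13.3 and 11.9 CPM in controls (log2 fold change 0.32, SE 0.15, edgeR adjusted p 0.741). Unc13b, a vesicle priming factor, had 20.4, 21.4, 19.3, 23.4 and 20.4 CPM in RCF males, against 27.1, 19.8, 26.6, 47.6 and 27.6 CPM in control males. Its log2 fold change was -0.50 (edgeR adjusted p 0.761), and -0.28 without control replicate 4. The RCF libraries were close together in Unc13b and the controls were not.

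Syt17 in DBA males had 52.9, 23.0, 31.0, 56.4 and 43.7 CPM after RCF and 65.3, 26.0, 223, 47.1 and 49.2 CPM in controls. Its log2 fold change of -0.99 (edgeR adjusted p 0.789) was -0.19 without control replicate 3, the library with the highest dopamine neuron index of all, 8.61. Syt2 had 220, 455, 264, 165 and 209 CPM in RCF males and 88.9, 324, 146, 48.7 and 151 CPM in control males (log2 fold change 0.79, SE 0.53, edgeR adjusted p 0.809). All RCF libraries exceeded 4 of the 5 controls. Vamp1 had a log2 fold change of 0.50, Syt1 -0.14, Cplx1 -0.52, Cplx2 -0.12 and Vamp2 -0.15, and 0 members had groups that did not overlap, against 0.629% of all genes (0.304% with RCF above control).

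The RCF effect itself was compared between strains and between sexes. For strain, 0 members passed, against 0.0108% of all genes, and 3 had an unadjusted p under 0.05, against 6% of all genes: Cplx2 (difference of log2 fold changes, DBA minus C57, -0.76), Syt3 (-0.29) and Rab3a (-0.20), with edgeR adjusted p of 0.808 or more. Between sexes 0 members passed, against 0.00542% of all genes, and 0 had an unadjusted p under 0.05, against 8.48%. The strain test averages over both sexes, and a difference of RCF effects between C57 females and DBA females alone was not tested.

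The paralogue pairs were compared as log2 ratios of their levels per kilobase with a pseudocount of 0.5 CPM. Syt1 exceeded Syt2 in 39 of 40 libraries, with a median ratio of 6.13-fold. The exception was RCF replicate 4 of C57 females, with a log2 ratio of -0.62, and the highest value was 4.66 in control replicate 3 of DBA females. Cplx1 exceeded Cplx2 in 40 of 40 libraries, by 3.14-fold at the median and with log2 ratios of 0.79 to 2.86. Vamp1 lay below Vamp2 in 40 of 40 libraries, with a median ratio of 0.148 and log2 ratios of -3.88 to -0.16, the highest again in RCF replicate 4 of C57 females. Per kilobase, Syt1, Vamp2 and Cplx1 were thus the higher form of their pair in nearly every library. The scaling matters here, as Cplx1 has 2189 nt of exon and Cplx2 4928 nt. In CPM without length scaling the medians were 642 for Cplx1 and 449 for Cplx2, but control replicate 1 of C57 males had 623 and 809. Vamp1 had a median of 384 CPM against 995 CPM for Vamp2, but 1596 against 667 CPM in RCF replicate 4 of C57 females.

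Most of the other chosen pairs kept 1 order per kilobase. Sv2a exceeded Sv2b (log2 ratio 1.35 to 4.14) and Sv2c (0.98 to 5.81), Rab3a exceeded Rab3b (3.50 to 7.83) and Rab3c (1.33 to 5.40), and Rims1 exceeded Rims2 (0.41 to 1.77) in 40 of 40 libraries. The order of Rab3a and Rab3c rests on exon lengths of 2226 and 12049 nt. In CPM without length scaling, Rab3a had the lower median, 658 against 727 for Rab3c. Unc13a exceeded Unc13b (3.14 to 5.27), Syn2 exceeded Syn3 (4.66 to 6.38) and Napa lay below Napb (-1.11 to -0.22) in every library. Of the 13 chosen pairs, Unc13a against Unc13c, Bsn against Pclo, and Syt1 against Syt2 changed order per kilobase. Unc13a was the higher in 13 of 40 libraries and Bsn in 34 of 40. These orders rest on exon length as well. In CPM without length scaling the medians were 193 for Unc13a and 166 for Unc13c, and 165 for Bsn and 173 for Pclo. Bsn and Pclo encode the giant scaffolds of the active zone.

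None of 78 tests of these ratios passed after adjustment over all 78 (13 pairs in 4 RCF comparisons, strain and sex; two-sided permutation tests, exact for 5 against 5 libraries, where 0.00794 is the smallest p they can give). The log2 ratio of Syn2 to Syn3, the ratio with the smallest p, was 5.19, 5.28, 5.26, 4.89 and 4.66 in RCF females of C57, against 5.49, 5.96, 5.33, 5.997 and 5.85 in control females. In DBA females it was 5.63, 5.64, 5.66, 5.82 and 5.31 after RCF and 5.98, 6.16, 6.38, 5.998 and 6.20 in controls. In both strains every RCF female lay below every control female, with means lower by 0.67 in C57 and 0.53 in DBA (exact permutation p 0.00794 each, adjusted p 0.310). In males the mean was higher after RCF, by 0.073 in C57 and 0.086 in DBA (exact permutation p 0.817 and 0.810). The mean dopamine neuron index was 6.45 in RCF and 4.89 in control females of C57, and 4.70 and 3.94 in those of DBA. A link of the index with this ratio was not tested. Exons of Syn2 overlap Timp4 and exons of Syn3 overlap Timp3 on the other strand, and the strand setting of the counting is not given in the sources used here, so both genes' counts are uncertain. The same holds for Rab3a with Mpv17l2 and Unc13a with Colgalt1.

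The 3 pairs of the fast release machinery gave no ratio that separated the groups. The log2 ratio of Syt1 to Syt2 was 2.51 ± 1.81 in RCF females and 3.48 ± 0.71 in control females of C57 (SD, n = 5 each; exact permutation p 0.317). In DBA males it was 1.58 ± 0.66 after RCF and 2.53 ± 1.05 in controls (n = 5 each, exact permutation p 0.111). Cplx1 to Cplx2 was 2.40 ± 0.37 in RCF females and 1.61 ± 0.76 in control females of C57 (n = 5 each, exact permutation p 0.0952, adjusted 0.580). Vamp1 to Vamp2 was -2.40 ± 0.52 in RCF males and -3.14 ± 0.83 in control males of DBA (n = 5 each, exact permutation p 0.103). Between strains the Syt1 to Syt2 ratio was 2.201 ± 0.97 in DBA and 2.86 ± 1.22 in C57 (n = 20 each, permutation p 0.0727, adjusted 0.580).

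**Figure D4:**
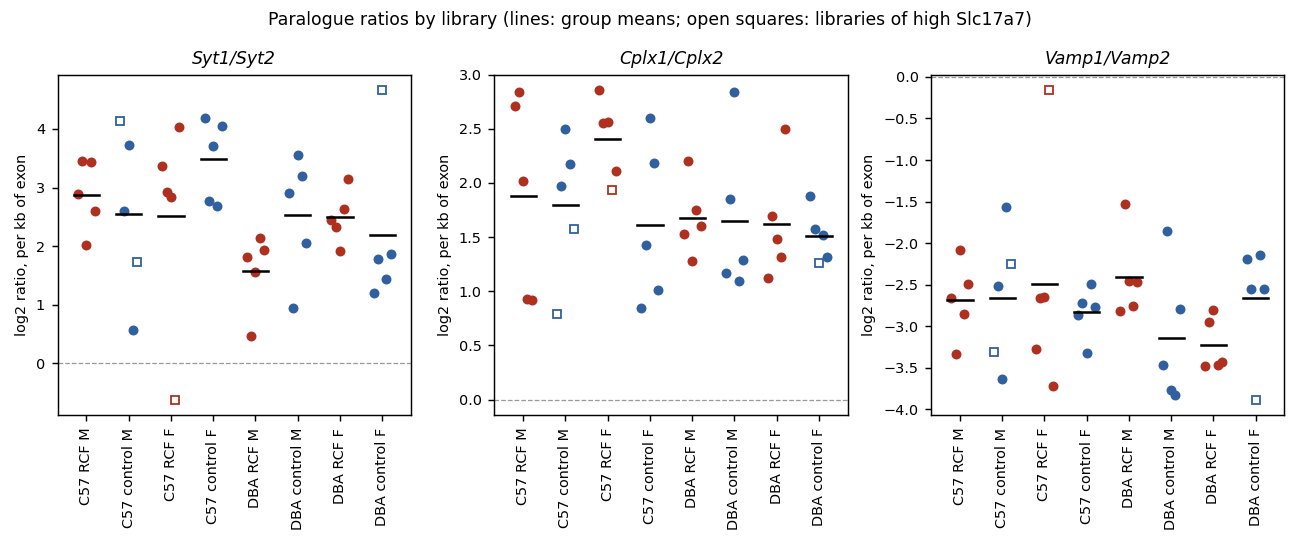
Log2 ratio per kilobase of Syt1 to Syt2, Cplx1 to Cplx2 and Vamp1 to Vamp2 in each library, by group with RCF left of control. Lines mark group means (n = 5), and open squares mark the 4 libraries of high Slc17a7. The Cplx1 to Cplx2 ratio stays above 0 and the Vamp1 to Vamp2 ratio below 0 in all 40 libraries, and the Syt1 to Syt2 ratio drops below 0 in 1.

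Across libraries, some paralogues moved together and others against each other. Deviations of log2 CPM from the group mean over 40 libraries were compared in 13 pairs, with permutation p adjusted over the 13. The points of a pair share a library, its depth and its cell content. Cplx1 and Cplx2 rose and fell together (Pearson r 0.81, adjusted p 6.5e-05; Spearman rho 0.78, adjusted p 6.5e-05; r 0.75 without the 2 libraries farthest out on the first gene's axis). Sv2a and Sv2c did so too (r 0.72, adjusted p 6.5e-05; rho 0.71, adjusted p 6.5e-05; r 0.66 without 2). Over the 36 libraries without high Slc17a7, r was 0.91 for the complexins and 0.76 for Sv2a and Sv2c.

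Vamp1 and Vamp2 went in opposite directions (r -0.75, adjusted p 0.00013; rho -0.65, adjusted p 0.000325; r -0.64 without 2 and -0.60 over the 36 libraries). Syn2 and Syn3 had an r of 0.55 (adjusted p 0.00278; rho 0.61, adjusted p 0.00013; 0.52 without 2). Unc13a and Unc13b had an r of 0.60 (adjusted p 0.00218; rho 0.52, adjusted p 0.00523), which was 0.37 without 2 and 0.33 over the 36 libraries. Syt1 and Syt2 had an r of -0.36 (adjusted p 0.0904; rho -0.31, adjusted p 0.14), and 0.01 over the 36 libraries. Sv2a and Sv2b had an r of -0.17 over 40 libraries (adjusted p 0.309; rho -0.10, adjusted p 0.616) and 0.60 over the 36. Of the other 6 pairs, Unc13a and Unc13c had the 1 rho past the threshold (-0.45, adjusted p 0.0206, r -0.32).

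Between the strains, Syt3 was the 1 member that differed among controls, where it was higher in DBA, against 16% of all genes (7.88% higher and 8.13% lower in DBA). At an unadjusted p under 0.05 there were 2 members, against 28.6%. The level of Syt3 ran from 60.4 over a median of 77.1 to 89.8 CPM in DBA controls and from 44.9 over 58.4 to 75.2 CPM in C57 controls. The ranges overlapped, with means of 74.9 ± 10.2 CPM in DBA and 59.5 ± 10.9 CPM in C57 (SD, n = 10 each). The log2 fold change was 0.34 (SE 0.09, edgeR adjusted p 0.0102) and lay between 0.29 and 0.39 when any 1 library was left out. In RCF mice Syt3 had a log2 fold change between strains of 0.05 (edgeR adjusted p 0.742), with 70.0 ± 11.3 CPM in DBA and 67.5 ± 10.8 CPM in C57 (n = 10 each). Syt3 lies on chr7:44384102-44400187 (plus strand, GRCm38).

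In RCF mice 0 members differed between strains at the threshold, against 23.8% of all genes, and 7 had an unadjusted p under 0.05, against 35.5%. Cplx1 was nearest, with 607 ± 312 CPM in DBA and 1290 ± 674 CPM in C57 RCF mice (SD, n = 10 each; log2 fold change -1.06, SE 0.44, edgeR adjusted p 0.0738). The dopamine neuron index was 4.14 ± 1.55 in these DBA mice and 6.01 ± 2.64 in the C57 mice, and with it as a covariate the log2 fold change of Cplx1 was -0.67 (edgeR adjusted p 0.19). Cplx1 passed when RCF replicate 4 of C57 males or RCF replicate 5 of DBA females was left out, and with a fit of the RCF libraries alone (-1.07, edgeR adjusted p 0.0312), in which Cplx2 passed as well (-0.52, 0.0472).

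The strain results depended on the 4 libraries of high Slc17a7. Without them, 4 members passed in controls, against 20.1% of all genes: Syt3 (0.33), Syt12 (0.44), Rab3a (0.15) and Rims2, an active zone scaffold (0.23). In RCF mice 6 passed, against 26.8% of all genes: Syn2 (log2 fold change 0.44), Syn3 (0.22), Rims2 (0.21), Pclo (0.23) and Napa (0.14) were higher in DBA and Rab3c (-0.55) was lower, with edgeR adjusted p of 0.0061 to 0.0453. None of these 6 passed in RCF mice over all 40 libraries. Their log2 fold changes there were 0.37 (Syn2), 0.12 (Syn3), 0.17 (Rims2), 0.24 (Pclo), 0.12 (Napa) and -0.40 (Rab3c). With the dopamine neuron index as a covariate, also over 40 libraries, they were 0.14, 0.034, 0.054, 0.14, 0.082 and 0.073 in that order. Again none passed, and whether the calls over 36 libraries depend on the index was not tested. Apart from Syt3, these genes were chosen for mention with their values in view. Pclo had 177 to 199.95 CPM with a median of 188 in DBA RCF mice and 143 to 186 CPM with a median of 156 in C57 RCF mice, ranges that overlapped at their ends. Between the sexes 0 members passed, against 0.146% of all genes (0.0705% higher and 0.0759% lower in females), and the 1 member with an unadjusted p under 0.05, against 9.68% of all genes, was Syn3 (female over male log2 fold change -0.22, edgeR adjusted p 0.305).

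The variation within groups followed the dopamine neuron markers for part of the machinery. The slope of each gene on the dopamine neuron index, with the 8 group means kept, was past the threshold in 14 of 35 members over the 40 libraries, 7 up and 7 down, against 13.2% of all genes (edgeR, adjusted over all genes). These slopes, and those on the pan-neuronal index, were fitted after the data had been seen. Without the 4 libraries 17 passed, 11 up and 6 down, against 14.6%, and 9 members passed in both sets with the same sign. A slope is in log2 units of the gene per log2 unit of the index.

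Sv2c followed the index most steeply, with a slope of 0.53 (SE 0.046, edgeR adjusted p 1.98e-10), and 0.60 without the 4 libraries. It had 588, 439, 526, 85.2 and 582 CPM in RCF females and 40.2, 55.7, 595, 308 and 28.0 CPM in control females of C57. The low RCF library was replicate 4, with Th at 0.725 CPM. In DBA males it had 137, 141, 188, 86.8 and 134 CPM after RCF and 93.4, 152, 1137, 53.1 and 105 CPM in controls, the highest being control replicate 3, with the highest index of all.

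Syt17 had a slope of 0.36 (edgeR adjusted p 5.62e-07; 0.34 without the 4 libraries), and Cplx1 one of 0.25 (edgeR adjusted p 0.0023; 0.45). Rab3c, a vesicle GTPase, had slopes of 0.19 and 0.15, Syt1 0.11 and 0.18, and Sv2a 0.039 and 0.046. The members that went down as the markers went up in both sets were Syn2, a vesicle tether (-0.13 and -0.14), Syt12 (-0.070 and -0.067) and Rims2 (-0.066 and -0.037). Of these 9 genes, 8 kept an edgeR adjusted p under 0.05 whichever library was left out, and Syt1 lost it without any 1 of 4 libraries, with a highest adjusted p of 0.189 without control replicate 3 of DBA males.

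Other slopes depended on which libraries were kept. Snap25 had a slope of -0.088 over 40 libraries, -0.018 without RCF replicate 4 of C57 females alone (edgeR adjusted p 0.652) and 0.016 over 36 libraries, and Sv2b had -0.15, -0.080 and 0.032. Nsf, Syn3 and Syt4 passed over 40 libraries and not over 36. Syt4, a synaptotagmin of dense-core vesicles, lost its call without control replicate 3 of DBA males, and Nsf without RCF replicate 4 of C57 females. Conversely, Stx1a (-0.083), Vamp2 (0.045), Syt3 (0.054), Syt9 (-0.098), Cplx2 (0.18), Rab3b (-0.15), Rims1 (0.089) and Bsn (0.16) passed over 36 libraries alone.

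**Figure D5:**
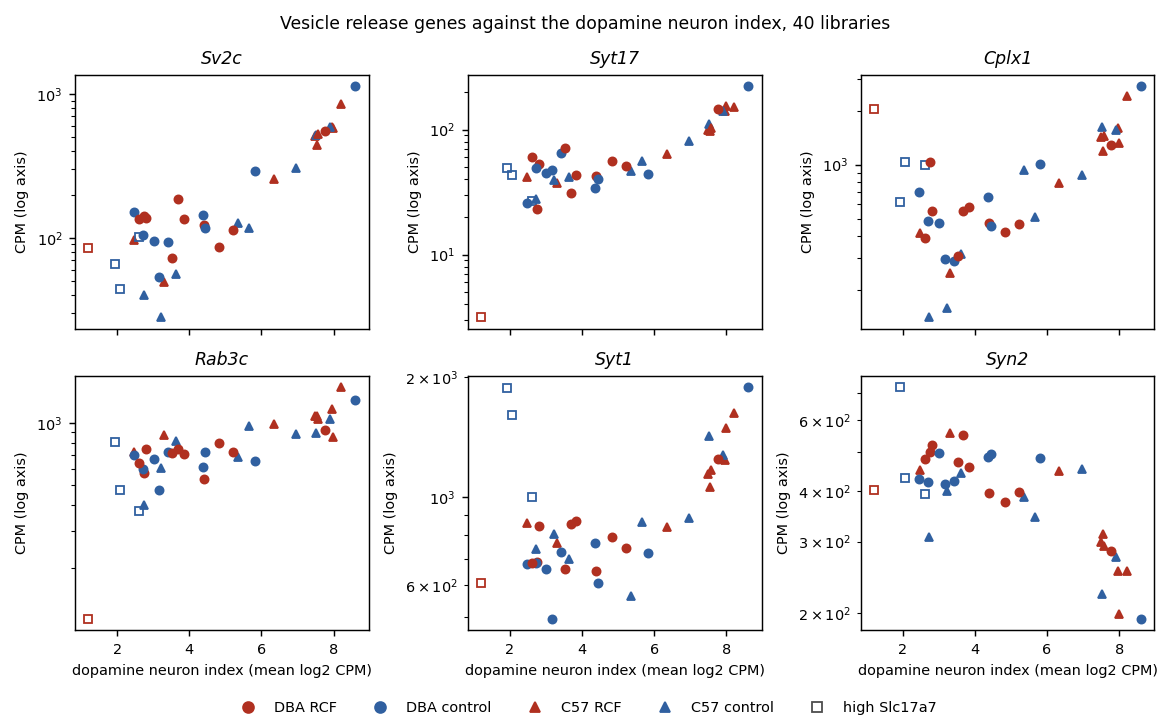
CPM (log axis) of 6 members against the dopamine neuron index (mean log2 CPM of 9 markers), 1 point per library: red for RCF, blue for control, circles for DBA, triangles for C57 and open squares for the 4 libraries of high Slc17a7. Sv2c, Syt17 and Cplx1 climb with the index, with slopes of 0.53, 0.36 and 0.25 over 40 libraries, and Syn2 declines with -0.13.

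The pan-neuronal index, whose markers include neurofilaments, gave a set of calls that partly overlapped. Neurofilament genes varied widely between libraries: Nefm ran from 126 to 1673 CPM and Nefl from 321 to 2038 CPM. Rbfox3, another neuronal gene, ran from 80.6 to 298 CPM. Over 40 libraries 17 members had a slope past the threshold, 12 up and 5 down, against 16.9% of all genes, and without the 4 libraries 8 had one, against 3.99%. Of the 17, 7 were also among the 14 called on the dopamine neuron index: Snap25, Syt17, Syn3, Sv2b, Rab3c, Rims2 and Nsf. Without RCF replicate 4 of C57 females alone there were 6, against 2.83% of all genes: Syt2, Vamp1, Snap25, Nsf and Napb up and Rab3b down. Syt2 had a slope of 4.05 over 40 libraries and 4.82 over 36, Vamp1 3.26 and 3.79, and Snap25 2.34 and 1.71. Nsf had slopes of 1.44 and 1.08, and Napb, the beta-SNAP of neurons, 0.86 and 0.69. Rab3b went the other way, with -3.04 and -2.99.

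The index spans only 8.55 to 9.47, so a slope per unit covers about its whole range over 40 libraries. Its upper end was RCF replicate 4 of C57 females alone. Over the 36 libraries it ran from 8.55 to 8.97, so a slope per unit there reaches beyond the values seen. Syt5 had slopes of -2.98 and -1.47 and passed in both sets, and lost its call without RCF replicate 4 of C57 females alone (-0.92, edgeR adjusted p 0.305). The 2 indices were themselves related within groups, with a correlation of deviations of -0.38 over the 40 libraries. Whether cell number or level per cell moved with either index was not tested.

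Other genes of the pathway were counted as a list. Of 73 listed genes of vesicle fusion, priming, coat formation and transmitter loading, 71 entered the test, and 0 passed in any of the 4 RCF comparisons. Among controls 2 were lower in DBA, against 8.13% of all genes: Vamp3, a synaptobrevin of non-neuronal cells (log2 fold change -0.31, edgeR adjusted p 0.0416), and Syt15 (-1.35, 0.00571). In RCF mice 8 of the 71 were higher and 8 lower in DBA, where 0 of the 35 members passed and 23.8% of all genes did. Those with the smallest p were Syt10 (log2 fold change 1.28), Erc1 (0.38), Syt14 (0.34) and Doc2a (0.80) upward and Snap23 (-0.37), Vamp3 (-0.44), Rab5a (-0.20) and Dnm2 (-0.29) downward, each with an edgeR adjusted p of 0.0175 or less. Snap23 and Vamp3 are the SNAREs of general membrane traffic.

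With the dopamine neuron index 6 of these 71 genes rose and 10 fell, against 5.78% and 7.42% of all genes, with the smallest p upward for Sncg, gamma-synuclein (slope 0.34), Cadps2, a priming factor of dense-core vesicles (0.48), Erc2 (0.21) and Syngr3 (0.083). Slc6a17 (-0.14), Stxbp5, which encodes the SNARE binding protein tomosyn (-0.11), Sh3gl2 (-0.086) and Syn1 (-0.070) led the downward side. With the pan-neuronal index 18 rose and 8 fell, against 9.62% and 7.32% of all genes. Dnm1, Sh3gl2, Napg and Cadps, of vesicle recovery and priming, led upward, and Syngr3, Rab27b, Rims3 and Ppfia2 downward.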

How the data were processed

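Messenger RNA of 40 ventral tegmental area punches was sequenced (8 groups of 5 read from the labels). Per the labels' protocols, a Norgen column kit gave the RNA of frozen tissue, the stranded library kit was Tecan Universal Plus mRNA-Seq, and reads were single and 75 nt long. The build GRCm38 (mm10) and the tools FastQC, cutadapt 1.11 and bcl2fastq 2.20 are named there, per the submitters' processing notes. The aligner, counter, strand setting and annotation were not given in the sources used here. Raw read counts per gene were deposited by the authors, with no normalization.

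Totals were 16913124 to 28179071 counts per library. No pair of libraries in a group was a duplicate (over 80 pairs and genes of 20 or more summed counts, chi-square was 5.51 to 141 times its degrees of freedom). The versioned Ensembl identifier gave a symbol for 54487 genes and the identifier without its version for 657, and 327 had none. A model with 8 group means was fitted with edgeR 4.0.16 (robust quasi-likelihood test, TMM factors 0.905 to 1.09, filterByExpr, 32 residual degrees of freedom, R 4.3.3), with Benjamini-Hochberg adjustment over 18441 genes in each of 10 comparisons and a threshold of 0.05. The script was tested on simulated data. Levels are TMM-scaled CPM, per kb of GENCODE exon length where stated. Ratios and correlations used Python 3.11.15 and scipy 1.17.1, with 100000 permutations where not exact. Alternatives were RLE factors, total counts, no low-count filter, a replicate block, limma voom (limma 3.58.1), DESeq2 1.42.0, the compared libraries only, other pseudocounts, 1 library left out in turn, and the 4 libraries of high Slc17a7 left out. The marker index covariates, slopes and 36-library correlations were chosen after seeing the data. Members, lists and tests were chosen with earlier results of these data known. Values are given for Syt1, Syt2, Cplx1, Cplx2, Vamp1 and Vamp2, for every member past the threshold in any comparison, and otherwise for the 3 members with the smallest p in each RCF comparison. Other pathway genes are named where past the threshold, at most 4 a direction. Replicate numbers were checked for pairing over 20 RCF and control pairs: correlations of deviations ran from -0.35 to 0.26 and 2 exceeded 0.1, so the numbers were not taken to pair libraries.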

Additional observations from a re-analysis of the deposited data

Results flagged for a closer look

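In each group of 5 libraries, the highest or lowest value of each member was compared with its neighbours by Dixon's test. Of 280 sets of 1 gene in 1 group, 52 held a library past the critical value of 0.71, which is 18.6%, against 9.76% of such sets over all tested genes, and 14 is the number that 1 in 20 would give. Of the 52, 30 came from 3 of the 4 libraries of high Slc17a7 (14, 9 and 7), and control replicate 5 of C57 males, the other one, had 0. No explanation for these values was tested.

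RCF replicate 4 of C57 females, the library with Th at 0.725 CPM, stood apart in 14 genes. It was high for the SNARE genes Snap25 (6277 CPM) and Vamp1 (1596 CPM), the SNARE recycling genes Nsf (1807 CPM), Napa (213 CPM) and Napb (861 CPM), and the calcium sensors Syt2 (855 CPM) and Syt3 (94.6 CPM). It was also high for the vesicle genes Syn3 (23.1 CPM), Sv2b (563 CPM) and Synj1 (669 CPM). It was low for Stx1a (12.3 CPM), Vamp2 (667 CPM), Syt5 (6.68 CPM) and Unc13b (8.44 CPM). For Snap25 the other 4 libraries of the group had 1449 to 1792 CPM, and for Syt5 93.2 to 112 CPM.

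Control replicate 3 of DBA females stood apart in 9 genes. It was high for Stx1a (144 CPM), Syt1 (1599.8 CPM), Syt7 (525 CPM), Sv2b (436 CPM), Rims2 (151 CPM), Unc13b (38.8 CPM) and Bsn (352 CPM), and low for Syn2 (431 CPM) and Sv2a (616 CPM). Control replicate 1 of C57 males stood apart in 7 genes and was high for Sv2b (492 CPM) and the active zone genes Rims1 (312 CPM), Unc13a (418 CPM), Bsn (470.3 CPM) and Pclo (338 CPM). It was also high for Napb (802 CPM), and low for Syt9 (22.7 CPM).

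Control replicate 3 of DBA males had the highest dopamine neuron index, 8.61, and stood apart in 7 genes. It was high for Syt1 (1881 CPM), Syt17 (223 CPM), Sv2c (1137 CPM), Cplx1 (2740 CPM), Cplx2 (863 CPM) and Bsn (348 CPM) and low for Syn2 (194 CPM). RCF replicate 5 of DBA females, with an index of 7.77, was high for the same Syt1 (1242 CPM), Syt17 (146 CPM), Sv2c (556 CPM) and Cplx1 (1293 CPM), and low for Nsf (832 CPM). Control replicate 3 of C57 males was high for Sv2c (521 CPM).

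RCF replicate 2 of DBA males was high for Cplx1 (1038 CPM) and low for Syt11 (1007 CPM). Control replicate 4 of DBA males was high for Unc13b (47.6 CPM) and low for Napa (144 CPM). In 5 further libraries 1 gene stood apart: RCF replicate 2 of C57 males was high for Bsn (311 CPM), RCF replicate 1 of C57 females for Sv2a (857 CPM) and RCF replicate 4 of DBA females for Syt5 (147 CPM). Control replicate 3 of C57 females was low for Rims2 (73.4 CPM), and RCF replicate 1 of DBA females for Napa (189 CPM).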

How the results depend on the processing

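The count of 0 vesicle release genes called in each RCF comparison, in both comparisons of RCF effects and between sexes held under every alternative and with any 1 library left out, and so did the 0 of 78 ratios. Among controls the strain count of 1 was 2 with total counts, limma voom or the pan-neuronal covariate, 4 without the 4 libraries of high Slc17a7, and 1 to 2 with 1 library left out (Syt12 joined Syt3 without control replicate 1 or 5 of C57 males or control replicate 3 of DBA males). In RCF mice the strain count of 0 was 2 with total counts, 5 with the compared libraries only (Syt12, Cplx1, Cplx2, Pclo and Napa), 6 without the 4 libraries (named in the report), and 0 to 2 with 1 left out (Cplx1, Rab3c or Sv2c, without RCF replicate 4 of C57 males or females or RCF replicate 5 of DBA females). With 1 library left out, slope counts ran from 12 to 16 (dopamine neuron index) and 6 to 20 (pan-neuronal index; 6 without RCF replicate 4 of C57 females). Without the 4 libraries they were 17 and 8.

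No sign of an uncalled RCF log2 fold change is firm where it reversed. Without the 4 libraries, C57 males gave Stx1a 0.43, Napa 0.00258, Sv2b 0.28, Syt1 0.14, Cplx2 0.083 and Vamp2 0.054, C57 females Vamp1 -0.16 and Vamp2 0.052, and DBA females Syt1 0.22 and Vamp2 0.089. The dopamine slopes of Snap25 and Sv2b became 0.016 and 0.032. With limma voom, Cplx1 was -0.15 in C57 males, Syt1 0.026 in DBA males and Vamp2 0.00306 in DBA females. With the dopamine covariate, Cplx1 was -0.33 in C57 males and 0.029 in DBA males, and Syt1 0.018 in DBA males. With the pan-neuronal covariate, Vamp1 was 0.20 in C57 males and -0.20 in C57 females, and Vamp2 0.018 in C57 females. Vamp2 in DBA females was 0.00160 with RLE factors, 0.065 with total counts and 0.00196 with DESeq2. The causes were not tested.

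With 1 library left out, the log2 fold changes that reversed ran, in C57 males, from -0.35 to 0.11 (Syt1), -0.38 to 0.46 (Cplx1), -0.33 to 0.082 (Vamp1) and -0.12 to 0.019 (Vamp2). In C57 females they ran from -0.16 to 0.87 (Vamp1) and -0.089 to 0.052 (Vamp2). In DBA males they ran from -0.30 to 0.32 (Syt1), -0.79 to 0.50 (Cplx1) and -0.27 to 0.21 (Cplx2), and in DBA females from -0.35 to 0.21 (Syt1) and -0.066 to 0.085 (Vamp2).

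The replicate numbers did not pair the libraries. With a replicate block, 0 members were called in each RCF comparison, 1 between strains in controls (Syt3, log2 fold change 0.34, edgeR adjusted p 0.0127) and 0 in RCF mice, and the slope counts were 12 and 20. Counts of every member were ample, the lowest being 61 reads (Syt17), so that depth limited these values less than the spread between libraries.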
